A study of Mus musculus with 18 samples.

Results

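Angptl4, Fgf21, Plin2, Pdk4, Ucp3, Acot1, Vnn1, Cyp4b1 and Arxes1 are mouse genes known to respond to fibrates, the drugs that activate peroxisome proliferator-activated receptors (PPARs). They were chosen by name, with earlier results of these data known, so that the shares of them called are descriptions. Each of the 9 was read by exactly 1 probe set with a single gene symbol, so that 9 of the 19938 genes measured are described. The signals came from visceral fat (WAT) of 18 male wild-type C57BL/6N mice aged 5 to 6 months, with 1 Affymetrix Mouse Gene 1.0 ST array per mouse. The STZ, BEZ group (n = 5) was made diabetic with streptozotocin, a toxin of the insulin-producing beta cells, given at 65 mg/kg on 5 days at an age of 10 to 16 weeks, and was fed bezafibrate (BEZ) in chow at 0.25 or 0.5% for 8 weeks from 2 weeks after the toxin. The labels do not say which mouse had which concentration. The STZ, SD group (n = 6) had the same toxin and the standard diet, and the Con, SD group (n = 7) had citrate buffer and the standard diet. The study's methods describe another STZ dose and untreated controls, and the labels were followed here.

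PPARs are nuclear receptors that bind fatty acids and fibrates, pair with a retinoid X receptor and attach to DNA at a repeated hexamer. PPARα is best known in liver, PPARγ is the master regulator of fat cell formation, and PPARδ is found in most tissues; BEZ activates all of them. Their targets take up, store and oxidise fatty acids, and several are also raised by fasting or by a lack of insulin, when fatty acids leave the fat cell.

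The promoters of 7 of the 9 genes were in the RefSeq table (build GRCm38.p6), and Angptl4 and Vnn1 were not matched. The window from 250 bases before to 50 after the start of each gene was searched on both strands for the direct repeat that PPARs bind, AGGNCA followed by AGGNCA with any 1 base between, and for the single hexamer AGGTCA, which can lie within it. The repeat was in 0 of the 7 windows and in 0.381% of the 32851 promoters of the table. The single hexamer was in 2 of the 7, against 16.3% of all promoters: Ucp3 held it at positions -149 to -144 and -44 to -39 from the start, and Plin2 held it on the opposite strand at -218 to -213. No match means only that these letters are not in this window. The 250 bases before the start are printed 5′ to 3′ for the pair with a match and for Arxes1 and Pdk4, the members that differed most between groups, with the hexamer in capitals (on the opposite strand it reads TGACCT). They lie at chr7:100472741-100472990 (plus strand), chr4:86670060-86670309 (minus), chrX:136033117-136033366 (plus) and chr6:5496279-5496528 (minus).
Ucp3: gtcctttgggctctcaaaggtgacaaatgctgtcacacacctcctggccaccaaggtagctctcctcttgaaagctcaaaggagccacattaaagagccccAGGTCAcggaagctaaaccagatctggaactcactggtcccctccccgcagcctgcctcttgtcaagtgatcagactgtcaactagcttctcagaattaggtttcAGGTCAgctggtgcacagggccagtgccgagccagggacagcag
Plin2: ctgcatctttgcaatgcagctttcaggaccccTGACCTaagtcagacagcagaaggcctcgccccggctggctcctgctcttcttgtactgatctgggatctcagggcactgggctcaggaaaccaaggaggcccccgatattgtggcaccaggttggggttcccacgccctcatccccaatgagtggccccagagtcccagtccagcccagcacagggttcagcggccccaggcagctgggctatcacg
Arxes1: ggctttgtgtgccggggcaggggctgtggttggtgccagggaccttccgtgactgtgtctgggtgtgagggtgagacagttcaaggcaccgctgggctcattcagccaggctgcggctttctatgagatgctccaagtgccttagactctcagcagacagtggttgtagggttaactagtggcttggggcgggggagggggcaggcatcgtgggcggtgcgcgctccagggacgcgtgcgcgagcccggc
Pdk4: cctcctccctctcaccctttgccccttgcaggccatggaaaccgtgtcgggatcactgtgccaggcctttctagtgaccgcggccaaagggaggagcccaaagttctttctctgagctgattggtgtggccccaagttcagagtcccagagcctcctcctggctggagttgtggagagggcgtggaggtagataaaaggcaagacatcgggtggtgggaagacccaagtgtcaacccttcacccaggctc

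Array medians lay between 6.76 and 6.87 on the log2 scale, and no pair of arrays correlated above 0.991. Markers of fat were high: the mean log2 signal of 9 measured white adipocyte markers was 11.54 to 11.76 in STZ, BEZ, 9.12 to 11.71 in STZ, SD and 11.01 to 11.78 in Con, SD. It was low in STZ, SD replicates 2, 3, 4 and 6 (10.82, 10.61, 10.42 and 9.12) and high in replicates 1 and 5 (11.65 and 11.71). Relative to Con, SD, 7 of the 9 white adipocyte markers had a lower and 2 a higher group mean in STZ, SD. Lep had 8.32 against 12.15 and Trarg1 9.47 against 11.07, while Adig had 10.29 against 9.88 and Acvr1c 10.04 against 9.57. How far the marker mean follows fat cell content was not tested. Other organs were visible too. The mean of 18 pancreas markers was 10.86, 9.18, 8.90 and 8.36 in STZ, BEZ replicates 1 to 4, 12.87 in STZ, SD replicate 6 and at most 6.15 on the 13 other arrays. The mean of 10 liver markers was 9.43 in STZ, BEZ replicate 5 and at most 8.18 elsewhere. The mean of 14 markers of epididymis and testis was 5.40 to 6.02 in STZ, BEZ, 5.37 to 11.75 in STZ, SD and 6.34 to 11.61 in Con, SD. Beside a result, values without the arrays that stand apart, or with a marker mean as a covariate in the fit, are given where they end or make a call.

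In diabetic fat treated with BEZ, the adipogenesis gene Arxes1 was 6.02-fold and the mitochondrial carrier Ucp3 2.82-fold higher than in STZ, SD, and 8 of the 9 genes had the higher mean in STZ, BEZ. Diabetes without the drug split the set: Ucp3 and the lipid droplet coat gene Plin2 were lower in STZ, SD than in Con, SD, while Pdk4, which shuts glucose carbon out of the mitochondria, and the pantetheinase Vnn1 were higher. Against Con, SD, the treated diabetic mice had 4.29-fold more Pdk4, 3.77-fold more Arxes1 and 2.94-fold more Vnn1. Fgf21, the fibrate hormone of the liver, was called in none of these comparisons with limma or SAM. A gene was called changed at an adjusted p under 0.10 in limma (Benjamini-Hochberg, over all genes). On that rule 2 of 9 rose and 0 fell in STZ, BEZ vs STZ, SD, where 0.707% of all genes were called. In STZ, SD vs Con, SD 2 rose and 2 fell, beside 10.3% of all genes. The treated mice had 3 higher and 0 lower than Con, SD, beside 5.95%. With SAM, the permutation test of the study, 4 genes were called in STZ, BEZ vs STZ, SD, 4 in STZ, SD vs Con, SD and 6 in STZ, BEZ vs Con, SD, beside 3.07%, 14.2% and 23.2% of all genes. With the mean of the pancreas markers as a covariate in the limma fit, Angptl4, Plin2, Pdk4 and Vnn1 were called higher as well in STZ, BEZ vs STZ, SD. Angptl4, Acot1 and Cyp4b1 were so in STZ, BEZ vs Con, SD, while Fgf21 was called lower in both and Plin2 no longer in STZ, SD vs Con, SD. That fit called 1996 of all genes in STZ, BEZ vs STZ, SD and 4173 in STZ, BEZ vs Con, SD. Other settings ended calls in STZ, BEZ vs STZ, SD. Only Arxes1 was called there with the white adipocyte or the epididymis and testis mean as a covariate. Those fits called only 6 and 16 of all genes there. With the replicate number as a block in the fit, 0 of the 9 were called there, beside 2 of all genes. The STZ, SD arrays enter STZ, BEZ vs STZ, SD and STZ, SD vs Con, SD with opposite signs, so these are not independent of each other. In bulk tissue, fewer cells of a type and less RNA per cell cannot be told apart.

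**Figure D1:**
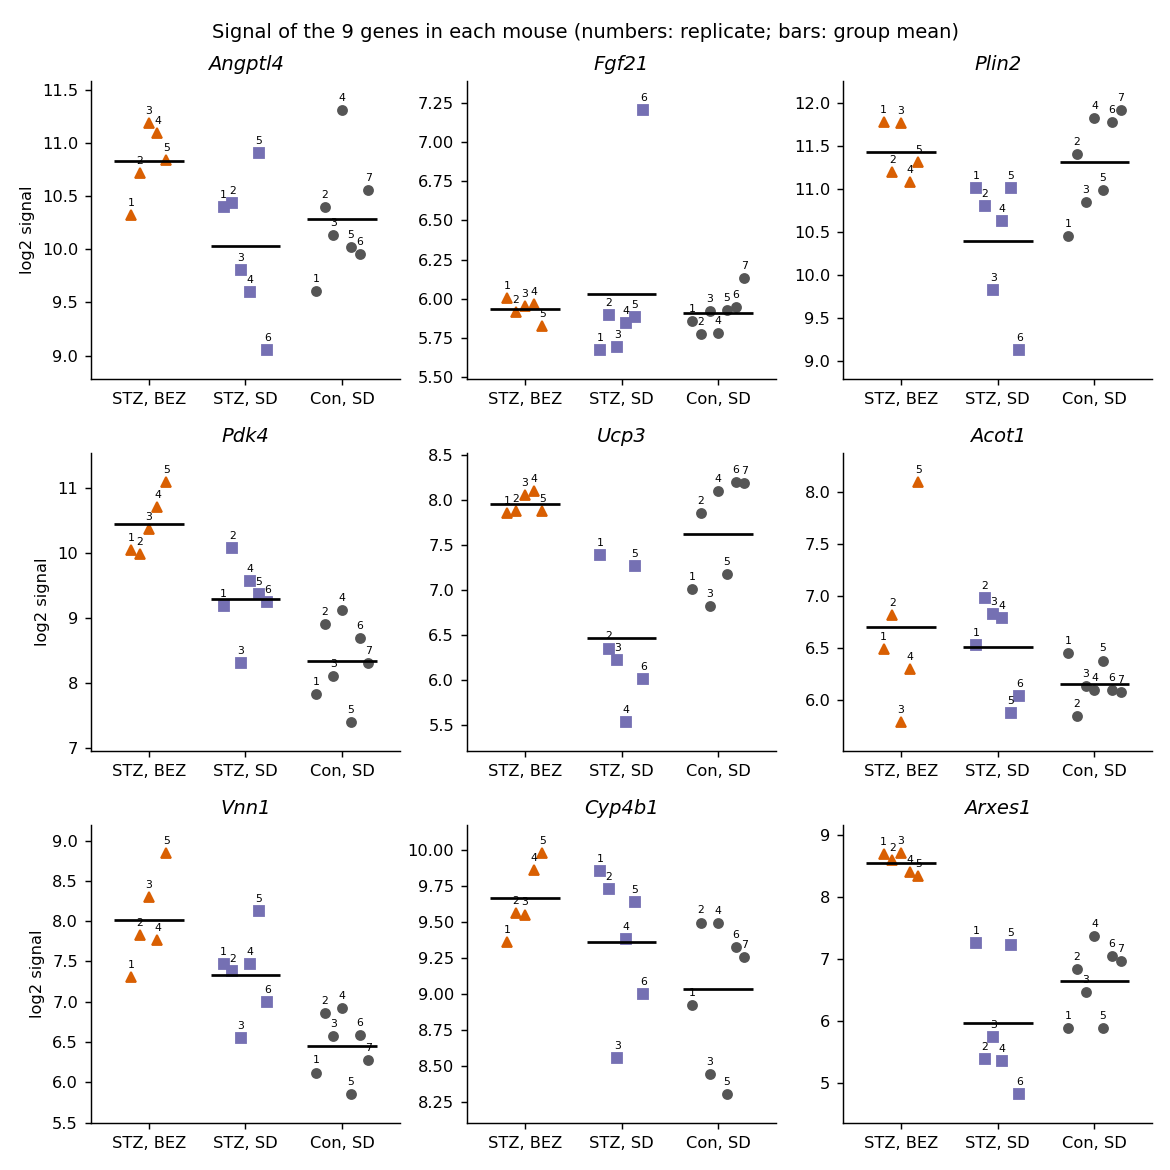
Log2 signal of each of the 9 genes (y axis, 1 scale per gene) in every mouse of the STZ, BEZ, STZ, SD and Con, SD groups, with the replicate number at each point and a bar at the group mean. Arxes1 lay at 8.34 to 8.70 in STZ, BEZ, above all other arrays, while Fgf21 reached 7.21 in a single mouse of STZ, SD.

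Arxes1 is an X-linked gene that mouse fat cell precursors need to differentiate and that PPARγ switches on. It had the largest difference among the 9 in STZ, BEZ vs STZ, SD. On the log2 scale, STZ, BEZ replicates 1 to 5 had 8.70, 8.60, 8.70, 8.41 and 8.34. In STZ, SD it ranged between 4.82 and 7.25 with a median of 5.55, and in Con, SD between 5.88 and 7.36 with a median of 6.84. All STZ, BEZ arrays were above all arrays of both other groups. The log2 difference in STZ, BEZ vs STZ, SD was 2.59 (SE 0.40, adjusted p = 0.0107), the 8th smallest p of all genes, and in STZ, BEZ vs Con, SD it was 1.91 (SE 0.38, adjusted p = 0.0136). In STZ, SD vs Con, SD it was -0.68 (SE 0.37, adjusted p = 0.326), and the groups overlapped, since STZ, SD replicates 1 and 5 had 7.25 and 7.22 while the 4 others had at most 5.74. The calls in both STZ, BEZ comparisons held without each array in turn. In STZ, BEZ vs STZ, SD the highest adjusted p was that without STZ, BEZ replicate 1 (adjusted p = 0.0542). Without the 5 arrays of high pancreas signal, which leaves STZ, BEZ replicate 5 alone in its group, with its spread assumed to be that of the others, the differences were 2.15 and 1.70 (adjusted p = 0.870 and 0.392). With the mean of the epididymis and testis markers as a covariate they were 2.44 and 1.63 (adjusted p = 0.0359 and 0.114).

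Arxes2, a neighbouring near-copy of Arxes1, moved with it: it rose by 1.71 in STZ, BEZ vs STZ, SD (SE 0.41, adjusted p = 0.0947) and by 2.55 in STZ, BEZ vs Con, SD (SE 0.40, adjusted p = 0.00481). In STZ, SD its difference from Con, SD was 0.85 (adjusted p = 0.213), of the opposite sign to that of Arxes1. The first of these calls was lost on leaving out 15 of the 18 arrays, one at a time, with an adjusted p of up to 0.254 (without STZ, BEZ replicate 1). How far the probes of such close copies read each other's transcripts was not tested.

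Ucp3, an inner mitochondrial membrane carrier related to the heat-producing Ucp1 and induced by fatty acids in muscle, was low in diabetic fat and not in treated diabetic fat. STZ, BEZ replicates 1 to 5 had 7.86, 7.88, 8.06, 8.10 and 7.88. In STZ, SD it ranged between 5.53 and 7.39 with a median of 6.29, and in Con, SD between 6.82 and 8.21 with a median of 7.86. The STZ, BEZ arrays were all above the STZ, SD arrays and within the range of Con, SD. Ucp3 rose by 1.49 in STZ, BEZ vs STZ, SD (SE 0.32, adjusted p = 0.0653) and fell by 1.16 in STZ, SD vs Con, SD (SE 0.30, adjusted p = 0.0320), lower in 6 of 6 mice than the Con, SD mean. The STZ, BEZ vs Con, SD difference was 0.33 with an interval of -0.33 to 0.99. The rise was no longer called without any one of STZ, BEZ replicates 1 to 5 or STZ, SD replicates 2, 3, 4 and 6 (adjusted p up to 0.185, without STZ, BEZ replicate 2), while the fall held without each single array. Without the 5 arrays of high pancreas signal neither was called, with a difference of 1.33 in STZ, BEZ vs STZ, SD (adjusted p = 1.00) and -1.07 in STZ, SD vs Con, SD (adjusted p = 0.110). With the epididymis and testis mean as a covariate the rise was 1.27 (adjusted p = 0.158). Of its family, Ucp1 had differences of 0.42 in STZ, BEZ vs STZ, SD and -0.33 in STZ, SD vs Con, SD (adjusted p = 0.694 and 0.540).

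Plin2, the protein that coats small lipid droplets, had the same order of group means as Ucp3, lowest in STZ, SD. STZ, BEZ and Con, SD were close, with a difference of 0.11 (adjusted p = 0.902) and medians of 11.31 and 11.41. Signals in STZ, BEZ replicates 1 to 5 were 11.77, 11.20, 11.77, 11.07 and 11.31. In STZ, SD it ranged between 9.12 and 11.00 with a median of 10.72, and in Con, SD between 10.46 and 11.92 with a median of 11.41. All STZ, BEZ arrays were above all STZ, SD arrays, with 11.07 against 11.00 at the boundary. With Arxes1 and Ucp3 this made 3 of 9 genes whose groups did not overlap in STZ, BEZ vs STZ, SD, all higher, beside 1.04% of all genes. The difference of 1.03 (SE 0.33) did not pass the limma threshold (adjusted p = 0.256), but Plin2 was called with SAM, as was Pdk4. Against Con, SD, Plin2 fell by 0.92 in STZ, SD (SE 0.31, adjusted p = 0.0877). That call was lost without any one of 13 arrays, namely STZ, BEZ replicates 1 to 5, STZ, SD replicates 2, 3, 4 and 6 and Con, SD replicates 2, 4, 6 and 7, with an adjusted p of up to 0.174 (without Con, SD replicate 7), and the difference was -0.66 without the 5 arrays of high pancreas signal (adjusted p = 0.208). Of the other droplet proteins, Plin5, which tethers droplets to mitochondria, rose by 0.52 in STZ, BEZ vs STZ, SD (SE 0.10, adjusted p = 0.0594, and up to 0.182 without STZ, BEZ replicate 1), and Plin3 fell by 0.34 in STZ, SD vs Con, SD (SE 0.08, adjusted p = 0.0263). Plin1 and Plin4, the large-droplet coats of white fat, had differences of 0.88 and 0.97 in STZ, BEZ vs STZ, SD (adjusted p = 0.300 and 0.334).

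**Figure D2:**
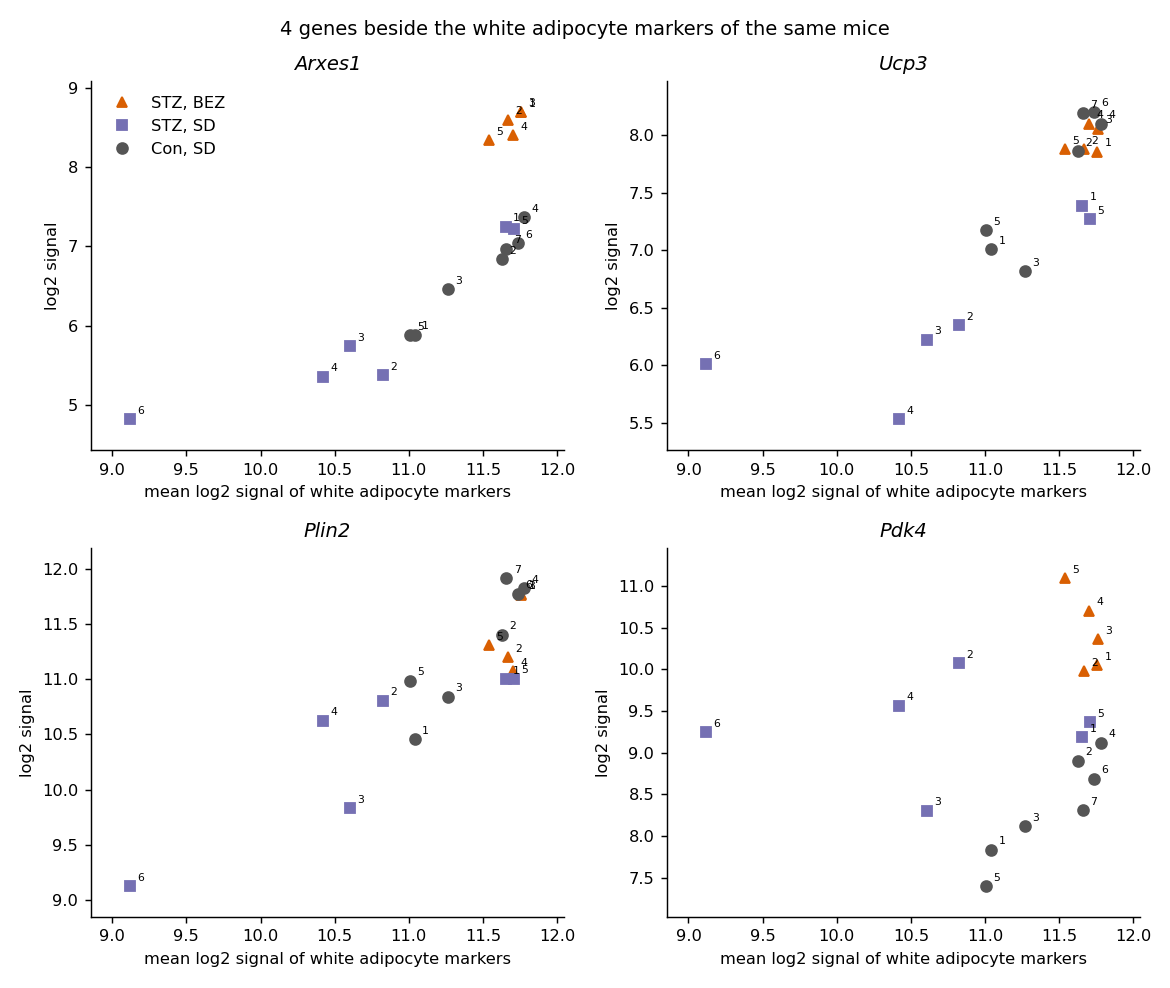
Log2 signal of Arxes1, Ucp3, Plin2 and Pdk4 (y axes) against the mean log2 signal of 9 white adipocyte markers on the same array (x axes), for STZ, BEZ (triangles), STZ, SD (squares) and Con, SD (circles), with replicate numbers. Arxes1, Ucp3 and Plin2 were lower on the STZ, SD arrays with marker means of 9.12 to 10.82 than on STZ, SD replicates 1 and 5. Pdk4 lay at 8.31 to 10.07 on the former and at 9.19 and 9.36 on replicates 1 and 5.

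Arxes1, Ucp3, Plin2, Angptl4 and, less closely with the adipocyte markers, Cyp4b1 moved with the markers of more than 1 cell type. Within groups, the correlation with the mean of the white adipocyte markers over 18 arrays was 0.90 for Arxes1, 0.83 for Plin2, 0.76 for Angptl4 and 0.75 for Ucp3. It was 0.56 for Cyp4b1, 0.45 for Vnn1, 0.23 for Pdk4, -0.11 for Acot1 and -0.74 for Fgf21. With the mean of the macrophage markers it was 0.80 for Plin2, 0.77 for Angptl4, 0.69 for Cyp4b1, 0.65 for Arxes1 and 0.60 for Ucp3. Vnn1, Pdk4, Fgf21 and Acot1 had 0.59, 0.58, -0.27 and -0.38 with the macrophage mean. That mean was 9.56 to 10.06 in STZ, BEZ, 8.98 to 9.84 in STZ, SD and 9.28 to 10.19 in Con, SD, and its part in the differences was not tested. These are descriptions, and genes of one array share its RNA. With the white adipocyte mean as a covariate in the fit, Arxes1 was 1.55 higher in STZ, BEZ than in STZ, SD (adjusted p = 0.0121) and 1.66 higher than in Con, SD. The Ucp3 difference was then 0.80 in STZ, BEZ vs STZ, SD (adjusted p = 0.873) and -0.64 in STZ, SD vs Con, SD (adjusted p = 0.113), and that of Plin2 was 0.23 and -0.32 (adjusted p = 0.996 and 0.375). The marker mean itself differed between groups, with Lep and Trarg1 furthest below Con, SD in STZ, SD. A fit with it as a covariate cannot separate fat cell content from a change of the markers with diabetes or treatment. The part of fat cell content in these differences was not tested further.

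Pdk4, the kinase that switches off pyruvate dehydrogenase and so spares glucose when fatty acids are burnt, was highest with the drug and lowest without diabetes. STZ, BEZ replicates 1 to 5 had 10.05, 9.98, 10.37, 10.71 and 11.09. In STZ, SD it ranged between 8.31 and 10.07 with a median of 9.30, and in Con, SD between 7.40 and 9.12 with a median of 8.31. The STZ, BEZ arrays were all above those of Con, SD, and overlapped STZ, SD only through STZ, SD replicate 2 (10.07). Pdk4 rose by 2.10 in STZ, BEZ vs Con, SD (SE 0.31, adjusted p = 0.00305), and this held without each array and in each other setting tried. The mean of the epididymis and testis markers, low in STZ, BEZ and high on some Con, SD arrays, correlated with Pdk4 at -0.74 over all arrays and -0.61 within groups, and with it as a covariate the difference was 1.58 (adjusted p = 0.0320). It rose by 0.95 in STZ, SD vs Con, SD (SE 0.29, adjusted p = 0.0653), higher than the Con, SD mean in 5 of 6 mice, a call lost without any one of STZ, SD replicates 2 and 4 or Con, SD replicates 1, 5 and 7 (adjusted p up to 0.155, without STZ, SD replicate 2). It was 0.96 without the 5 arrays of high pancreas signal and 0.70 with the epididymis and testis covariate (adjusted p = 0.119 and 0.106). The STZ, BEZ vs STZ, SD difference was 1.15 (SE 0.32, adjusted p = 0.166), called with SAM and not with limma.

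Of the other kinases of this switch, Pdk2 rose by 0.89 in STZ, BEZ vs Con, SD (SE 0.28, adjusted p = 0.0980, and up to 0.269 without STZ, BEZ replicate 5), and the Pdk1 and Pdk3 differences were 0.42 and -0.63 (adjusted p = 0.421 and 0.106). Of the enzyme that the kinases inhibit, the beta subunit Pdhb rose by 0.81 (SE 0.20, adjusted p = 0.0362), and the alpha subunit Pdha1 had a difference of 0.59 (adjusted p = 0.177). The Pdhb call was lost without STZ, BEZ replicate 2 (adjusted p = 0.102). The phosphatases Pdp1 and Pdp2, which reverse the kinases, had differences of 0.32 and 0.40 (adjusted p = 0.497 and 0.204).

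Vnn1, a membrane pantetheinase that recycles vitamin B5 and is a well-known PPARα target in liver, had the same order of groups as Pdk4. Signals in STZ, BEZ replicates 1 to 5 were 7.30, 7.83, 8.30, 7.77 and 8.84. In STZ, SD it ranged between 6.55 and 8.12 with a median of 7.42, and in Con, SD between 5.85 and 6.92 with a median of 6.57. The STZ, BEZ arrays were all above Con, SD and overlapped STZ, SD. The highest value, 8.84, was on STZ, BEZ replicate 5, the array with the liver marker mean of 9.43, and Vnn1 correlated with the liver markers at 0.59 within groups. With Pdk4 and Arxes1 this made 3 of 9 genes whose groups did not overlap in STZ, BEZ vs Con, SD, all higher, beside 5.17% of all genes; in STZ, SD vs Con, SD it was 0 of 9, beside 1.62%. Vnn1 rose by 1.55 in STZ, BEZ vs Con, SD (SE 0.27, adjusted p = 0.00864) and by 0.88 in STZ, SD vs Con, SD (SE 0.26, adjusted p = 0.0549), higher in 6 of 6 mice than the Con, SD mean. The second call was lost without STZ, SD replicate 2 or 4 or Con, SD replicate 7 (adjusted p up to 0.114, without STZ, SD replicate 4), and the first held without each array, with 1.35 without STZ, BEZ replicate 5 (adjusted p = 0.0302). Relative to STZ, SD the treated mice differed by 0.68 (SE 0.28, adjusted p = 0.407). Its paralog Vnn3 rose by 1.28 in STZ, BEZ vs Con, SD (SE 0.36, adjusted p = 0.0628, and up to 0.173 without STZ, BEZ replicate 5).

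Cyp4b1, a cytochrome P450 of the fatty acid hydroxylase family, had the same order with smaller steps. The signals of STZ, BEZ replicates 1 to 5 were 9.37, 9.56, 9.55, 9.87 and 9.98, those of STZ, SD lay between 8.55 and 9.86 (median 9.51), and those of Con, SD between 8.31 and 9.50 (median 9.26). The groups overlapped. No difference was called with limma, and the one to Con, SD was called with SAM: 0.63 in STZ, BEZ vs Con, SD (interval 0.11 to 1.14, adjusted p = 0.177), 0.30 in STZ, BEZ vs STZ, SD and 0.32 in STZ, SD vs Con, SD (adjusted p = 0.759 and 0.486). The lowest signals of Cyp4b1 were on Con, SD replicates 5 and 3 (8.31 and 8.45) and STZ, SD replicate 3 (8.55), the 3 arrays with the highest mean of epididymis and testis markers (11.61, 11.54 and 11.75). With that mean as a covariate the STZ, BEZ vs Con, SD difference of Cyp4b1 was 0.11 (adjusted p = 0.849).

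Acot1, a cytosolic thioesterase that splits fatty acyl-CoA and is strongly raised by fibrates in mouse liver, had overlapping groups and no call with limma, and was called higher with SAM in STZ, BEZ vs Con, SD. Signals in STZ, BEZ replicates 1 to 5 were 6.49, 6.82, 5.78, 6.30 and 8.10, those of STZ, SD lay between 5.87 and 6.97 (median 6.65), and those of Con, SD between 5.84 and 6.45 (median 6.09). The highest value, 8.10, was on the array with the liver marker mean of 9.43. In STZ, BEZ vs STZ, SD the difference was 0.19 (interval -0.44 to 0.83, adjusted p = 0.892), and it was -0.16 without STZ, BEZ replicate 5. Relative to Con, SD it was 0.54 (adjusted p = 0.342), and 0.19 without that array. Without the 5 arrays of high pancreas signal, where that array is the whole STZ, BEZ group, Acot1 was called higher than in STZ, SD (adjusted p = 0.0837) and, with a difference of 1.94, than in Con, SD (adjusted p = 0.0136).

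Several other acyl-CoA thioesterases of the same gene cluster were called. The mitochondrial Acot2 rose by 0.94 in STZ, BEZ vs STZ, SD (SE 0.21, adjusted p = 0.0662, and up to 0.185 without STZ, BEZ replicate 2) and by 1.20 in STZ, BEZ vs Con, SD (SE 0.20, adjusted p = 0.00651). The peroxisomal Acot4 rose by 1.87 in STZ, BEZ vs Con, SD (SE 0.43, adjusted p = 0.0270) and by 1.19 in STZ, SD vs Con, SD (SE 0.41, adjusted p = 0.0954, and up to 0.212 without STZ, SD replicate 2). Acot5 rose by 0.66 in STZ, BEZ vs Con, SD (SE 0.21, adjusted p = 0.0971, and up to 0.230 without STZ, BEZ replicate 5), and Acot3 had a difference of 0.70 (adjusted p = 0.177). These paralogs are close in sequence, and shared probe signal was not tested.

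**Figure D3:**
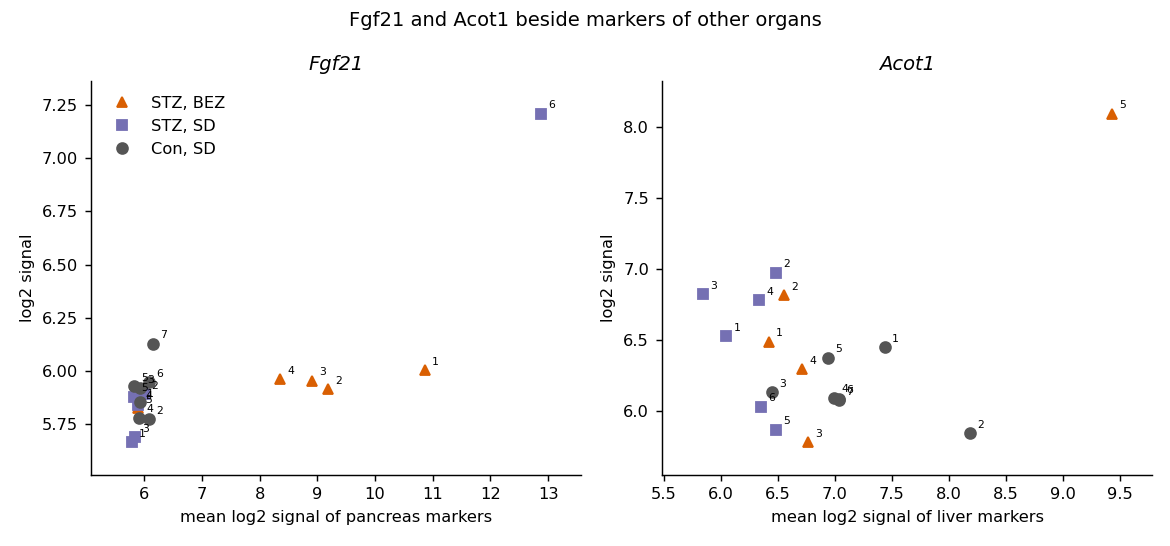
Log2 signal of Fgf21 against the mean of 18 pancreas markers (left) and of Acot1 against the mean of 10 liver markers (right), 1 point per mouse with its replicate number, for STZ, BEZ (triangles), STZ, SD (squares) and Con, SD (circles). The highest Fgf21 (7.21) was on the array with a pancreas mean of 12.87, and the highest Acot1 (8.10) on that with a liver mean of 9.43.

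Angptl4, a secreted inhibitor of lipoprotein lipase made by fat cells in fasting, was called in no comparison with limma, and higher with SAM in STZ, BEZ vs Con, SD. STZ, BEZ replicates 1 to 5 had 10.32, 10.71, 11.19, 11.09 and 10.84, those of STZ, SD lay between 9.05 and 10.91 (median 10.10), and those of Con, SD between 9.61 and 11.31 (median 10.14). All 5 STZ, BEZ arrays were above the means of both other groups, and the ranges overlapped. The difference was 0.80 in STZ, BEZ vs STZ, SD (interval 0.14 to 1.45, adjusted p = 0.362), 0.55 in STZ, BEZ vs Con, SD (adjusted p = 0.355) and -0.25 in STZ, SD vs Con, SD (adjusted p = 0.677). Its target Lpl, the lipase that frees fatty acids from lipoproteins, had differences of 0.64 in STZ, BEZ vs STZ, SD and -0.62 in STZ, SD vs Con, SD (adjusted p = 0.423 and 0.163). Angptl8, an insulin-induced inhibitor of the same lipase, fell by 1.40 in STZ, SD vs Con, SD (SE 0.36, adjusted p = 0.0322) and had a difference of 0.76 in STZ, BEZ vs STZ, SD (adjusted p = 0.540). Gpihbp1 and Lmf1, which carry and fold the lipase, passed in no comparison.

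Fgf21, a hormone of liver and fat that PPARα induces in fasting, was called in no comparison with limma or SAM, and its mean signal stood at percentile 27.8 of all genes. STZ, BEZ replicates 1 to 5 had 6.00, 5.92, 5.95, 5.96 and 5.83. In STZ, SD it ranged between 5.67 and 7.21 with a median of 5.86, and in Con, SD between 5.77 and 6.13 with a median of 5.92. A single array, STZ, SD replicate 6, stood at 7.21, and the next highest of that group had 5.89. That array also had the pancreas marker mean of 12.87 and the lowest adipocyte marker mean (9.12), and the within-group correlation of Fgf21 with the pancreas markers was 0.88. STZ, BEZ replicate 1, with a pancreas mean of 10.86, had 6.00. The differences were -0.10 in STZ, BEZ vs STZ, SD (interval -0.52 to 0.32, adjusted p = 0.924), 0.13 in STZ, SD vs Con, SD (adjusted p = 0.761) and 0.03 in STZ, BEZ vs Con, SD (interval -0.38 to 0.44, adjusted p = 0.960). Without STZ, SD replicate 6 the STZ, BEZ vs STZ, SD difference was 0.14 (adjusted p = 0.567). With the pancreas mean as a covariate Fgf21 was called lower, at -0.36 against STZ, SD and -0.40 against Con, SD (adjusted p = 0.0642 and 0.0316). Klb, the coreceptor through which the hormone acts, rose by 1.25 in STZ, BEZ vs Con, SD (SE 0.28, adjusted p = 0.0214) and had a difference of 0.81 in STZ, BEZ vs STZ, SD (adjusted p = 0.312), while its receptor Fgfr1 had differences of 0.15 and 0.24 (adjusted p = 0.687 and 0.685).

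**Figure D4:**
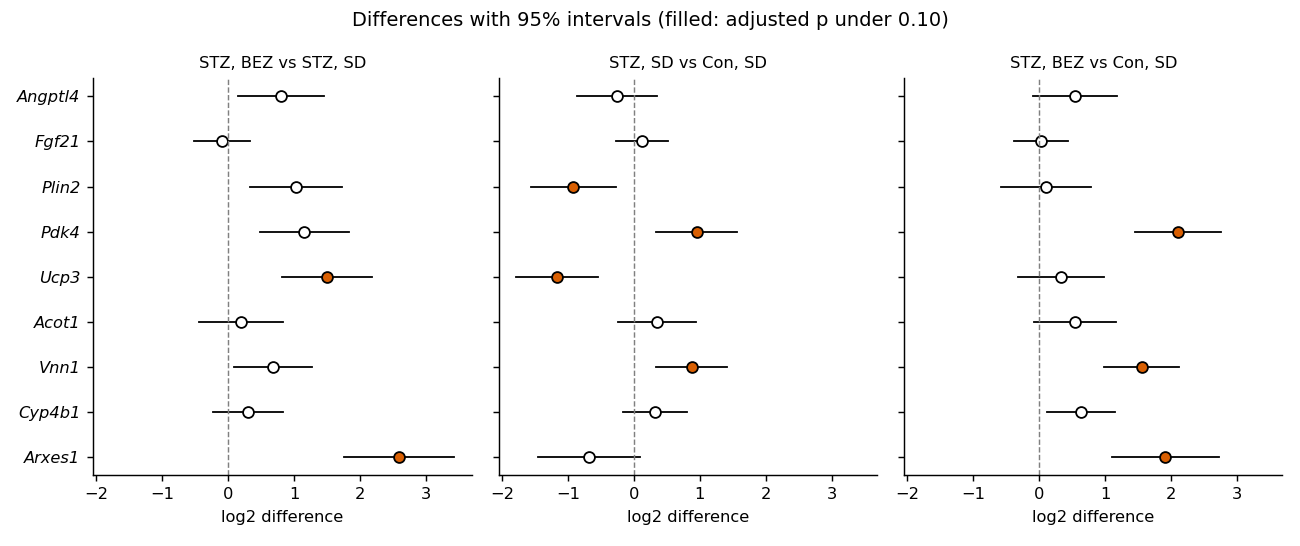
Log2 difference of each of the 9 genes with its 95% interval in STZ, BEZ vs STZ, SD (left), STZ, SD vs Con, SD (middle) and STZ, BEZ vs Con, SD (right), with filled points at an adjusted p under 0.10 in limma. Ucp3 and Plin2 lay below 0 in the middle panel and Pdk4 and Vnn1 above it, while Arxes1 had the largest difference on the left (2.59).

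Of the 3 receptors 1 was called, and only against Con, SD. Ppara rose by 0.90 in STZ, BEZ vs Con, SD (SE 0.17, adjusted p = 0.00969), with differences of 0.48 in STZ, BEZ vs STZ, SD and 0.42 in STZ, SD vs Con, SD (adjusted p = 0.320 and 0.126). Pparg had 0.70 in STZ, BEZ vs STZ, SD and -0.24 in STZ, SD vs Con, SD (adjusted p = 0.597 and 0.775), and its lowest signal, 9.17, was in STZ, SD against 11.77 to 11.87 in STZ, BEZ and 10.61 to 11.84 in Con, SD. Ppard had 0.08 and -0.14 in the same comparisons (adjusted p = 0.866 and 0.467). Ppargc1a, the coactivator of PPARs that drives mitochondrial growth, rose by 1.27 in STZ, SD vs Con, SD (SE 0.17, adjusted p = 0.00514) and by 1.58 in STZ, BEZ vs Con, SD (SE 0.18, adjusted p = 0.00106), with 0.32 in STZ, BEZ vs STZ, SD (adjusted p = 0.626). Sirt1, a deacetylase that acts on that coactivator, rose by 0.53 in STZ, SD vs Con, SD (adjusted p = 0.0122) and by 0.48 in the treated mice (adjusted p = 0.0248). Ppargc1b had 0.04 in STZ, BEZ vs STZ, SD, and 0.37 in STZ, SD and 0.41 in STZ, BEZ relative to Con, SD, and passed in none. Of the 16 receptors and coregulators measured, 0 were called in STZ, BEZ vs STZ, SD, 3 at an unadjusted p under 0.05 and 0 with SAM. Over all 19938 genes, 141 were called with limma, 2036 had an unadjusted p under 0.05 and 612 were called with SAM.

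Beyond the 9 genes, the mitochondrial targets of PPARs had the most calls of the lists in STZ, BEZ vs STZ, SD. Of 17 measured genes of fatty acid import and β-oxidation, 8 rose and 0 fell in STZ, BEZ vs STZ, SD, with a median difference of 0.72 beside 0.01 over all genes. In that comparison 0.707% of all genes were called. They include Hadha, the alpha subunit of the trifunctional protein (0.72, SE 0.11, adjusted p = 0.0107), Acadvl and Acads, the dehydrogenases of very long and short acyl chains (1.07 and 1.24, adjusted p = 0.0354 and 0.0594), and Hadh, the short-chain hydroxyacyl dehydrogenase (0.73, adjusted p = 0.0642). Of 15 peroxisomal and microsomal genes, 2 rose and 0 fell: the thiolase Acaa1b by 1.28 (adjusted p = 0.0403) and the dienoyl isomerase Ech1 by 0.68 (adjusted p = 0.0765), with a list median of 0.63. Of 21 genes of lipid uptake and storage 2 rose, Gpd1, source of the glycerol of triglycerides, by 1.87 (SE 0.27, adjusted p = 0.00846) and the desaturase Scd1 by 1.65 (adjusted p = 0.0621), with a median of 0.71. Of 24 partners and paralogs of the 9 genes 3 rose (Plin5, Acot2 and Arxes2), with a median of 0.57. Of these 15 calls, those of Hadha and Gpd1 held without each array, and the 13 others were lost without at least 1, the named ones with an adjusted p of up to 0.138 for Acadvl and Acaa1b, 0.182 for Acads, 0.185 for Hadh and Scd1 and 0.220 for Ech1 (without STZ, BEZ replicate 2, or replicate 1 for Acads). The white adipocyte marker mean, 11.54 to 11.76 in STZ, BEZ and 9.12 to 11.71 in STZ, SD, moved with these lists. With it as a covariate 1 list gene was called, and the mitochondrial list had 0 calls and a median of 0.36. Only 6 of all genes were called in that fit. Without the 5 arrays of high pancreas signal, which leaves STZ, BEZ replicate 5 alone in its group, the mitochondrial list had a median of 0.64. With the epididymis and testis covariate 3 list genes were called, 2 of them mitochondrial, beside 16 of all genes.

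In untreated diabetes, where 10.3% of all genes were called, these groups of genes did not share a direction. Of the 17 mitochondrial genes 0 rose and 1 fell in STZ, SD vs Con, SD, Cpt1a, the gatekeeper of fatty acid import (-0.44, SE 0.11, adjusted p = 0.0309), with a list median of 0.04 beside -0.03 over all genes. Of the 15 peroxisomal genes 0 were called, 1 at an unadjusted p under 0.05 and 2 lower with SAM; Crot and Abcd3 had the smallest p (-0.55 and -0.19, adjusted p = 0.129 and 0.386). Of the 21 lipid uptake and storage genes 6 fell and 2 rose, with a median of -0.45. Scd1 fell by 1.58, Gpd1 by 1.23 and Agpat2, which makes phosphatidic acid, by 1.37 (adjusted p = 0.0112, 0.0128 and 0.0324), while Txnip, which binds thioredoxin and is raised by glucose, rose by 0.80 (adjusted p = 0.0281). Over the 5 lists 5 genes rose and 9 fell. The falls stood beside the lower adipocyte marker means of STZ, SD replicates 2, 3, 4 and 6, though 2 of the 9 markers had a higher group mean than in Con, SD. With the white adipocyte mean as a covariate 28 list genes were higher and 6 lower, beside 2346 of all genes called. The lipid list then had 6 higher and 3 lower with a median of -0.16, and the mitochondrial list 6 higher and 1 lower with a median of 0.35. Whether that fit removes fat cell content or a change of the markers themselves was not tested.

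In STZ, BEZ vs Con, SD 5.95% of all genes were called. Of the 17 mitochondrial genes 14 rose and 0 fell in STZ, BEZ vs Con, SD (median 0.79 beside -0.01 over all genes), led by Hadha (0.83, adjusted p = 0.00124), Acadvl (1.39, adjusted p = 0.00126), the enoyl isomerase Eci1 (1.15, adjusted p = 0.00958) and the flavoprotein dehydrogenase Etfdh (0.88, adjusted p = 0.0109). Of the 15 peroxisomal genes 4 rose, namely Acaa1b, Ech1, Pex11a and Eci2 (1.19, 0.65, 0.47 and 0.68), and of the 21 lipid genes 4 rose, namely the fatty acid transporter Slc27a1 (1.77, adjusted p = 0.0136), Txnip, Retsat and Pck1 (0.90, 1.09 and 1.22). Of 24 partners and paralogs 9 rose, and of 16 receptors and coregulators 3 rose. No gene of these 5 lists fell with limma, and 3 were lower with SAM. Of the 34 calls 20 held without each array, while those of Pex11a, Eci2, Retsat and Pck1 were lost without some arrays (adjusted p up to 0.271, 0.235, 0.221 and 0.224, each without STZ, BEZ replicate 5). The epididymis and testis marker mean was 5.40 to 6.02 in STZ, BEZ and 6.34 to 11.61 in Con, SD. With it as a covariate 8 list genes were higher and 1 lower, beside 313 of all genes called. Of the higher ones 3 were mitochondrial (list median 0.53). Without the 5 arrays of high pancreas signal, which leaves STZ, BEZ replicate 5 alone in its group, the mitochondrial list had a median of 0.79.

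**Figure D5:**
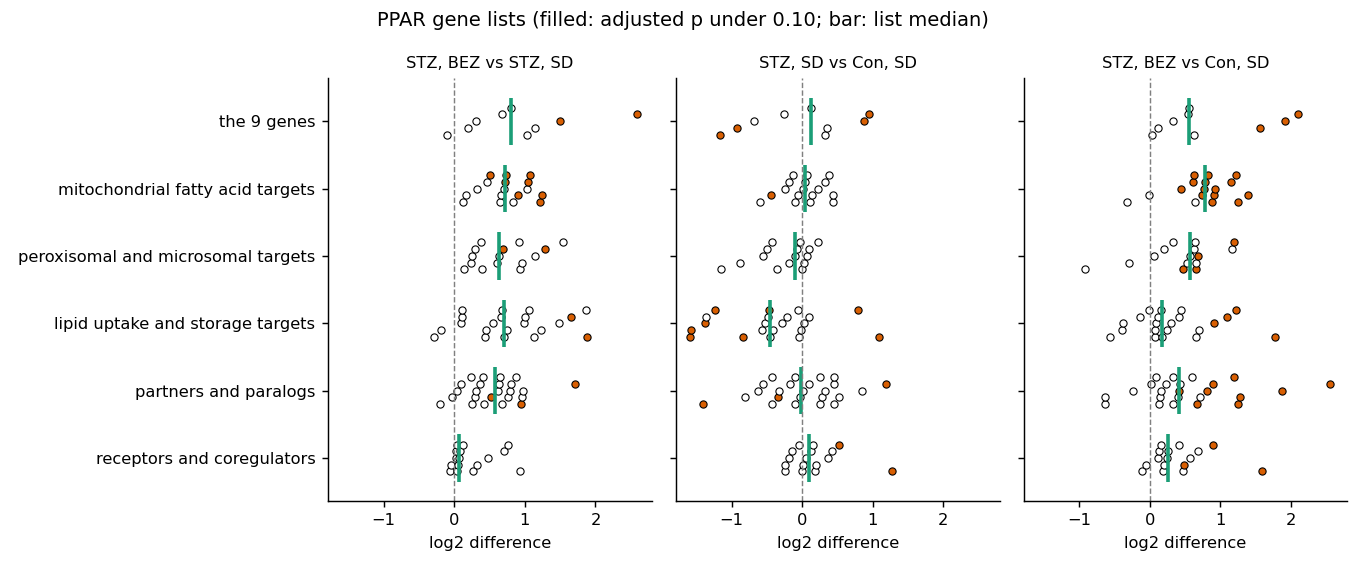
Log2 difference of every measured gene (points) of the 9 genes and 5 lists of PPAR genes, in STZ, BEZ vs STZ, SD (left), STZ, SD vs Con, SD (middle) and STZ, BEZ vs Con, SD (right), with filled points at an adjusted p under 0.10 in limma and a bar at each list median. The mitochondrial list has medians of 0.72, 0.04 and 0.79.

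Genes whose pattern over the 18 arrays was most like that of the 9 were ranked by their Pearson correlation with the mean of the 9 standardised signals. That mean was 0.48, 0.60, 0.72, 0.72 and 1.20 in STZ, BEZ replicates 1 to 5, while STZ, SD had -0.91 to 0.19 and Con, SD had -0.81 to 0.30. The 10 most alike were Prkce (0.94), Lrrc58 (0.93), Snrk (0.93), Camta2 (0.92), Acadl (0.92), Il15ra (0.92), Acadm (0.92), Hadhb (0.91), Polg (0.91) and Npepl1 (0.91). Acadl, Acadm and Hadhb encode enzymes of β-oxidation, and Polg the mitochondrial DNA polymerase. Of the 9 themselves, Arxes1 was closest to the mean that contains it (0.86) and Fgf21 farthest (-0.18). These are descriptions without a test, over arrays that share their group differences.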

How the data were processed

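RNA of visceral fat from 18 mice, 1 array each, was hybridised to the Mouse Gene 1.0 ST array of Affymetrix. The authors deposited log2 signals made by robust multi-array averaging (RMA) in Affymetrix Expression Console 1.2, as the submitters' processing notes name it, so that background correction and normalization were done before deposit. The genome build of that step is not given in the sources used here. All 18 value columns were used. Of 35556 probe sets, 21789 had a single gene symbol in the platform annotation, and where a symbol had several, the brightest was taken, which gave 19938 genes. No filter on dim genes was used. Array number, and not counting depth, limits the precision, and each difference is given with its standard error (SE) or 95% interval.

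The groups were taken from the treatment label and compared by limma (version 3.58.1, R 4.3.3), with all 18 arrays in one model (15 residual and 2.44 prior degrees of freedom), with p-values adjusted over all genes after Benjamini and Hochberg and a threshold of 0.10, the false discovery rate of 10% that the study used with SAM. Differences are in log2 units, and signals of different probe sets were not compared. The script was tested on simulated data. Members and lists were chosen with earlier results of these data known, the lists from general knowledge of the genes, and list genes were named by p-value, up to 4 called per comparison and list. Alternatives were a threshold of 0.05, SAM with 100 permutations, all probe sets, the mean of probe sets, a filter on the dimmest 25% of genes, quantile and median normalization, robust fitting with a trend in the variance, weighted arrays, models of the compared groups only, replicate number as a block, marker means as covariates, fits without the arrays whose pancreas mean exceeded the highest of Con, SD by over 1, and each array left out in turn. They were applied to the summed list counts after those had been seen, and a covariate of epididymis and testis markers was added then too. Promoters came from RefSeq.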

Additional observations from a re-analysis of the deposited data

Results flagged for a closer look

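Of 27 gene and group combinations searched (9 genes in 3 groups), 1 had an array far from the others of its group by Dixon's test at the 95% level, which chance passes in about 1 of 20 groups. Fgf21 was 7.21 in STZ, SD replicate 6, and the nearest array of that group had 5.89, a gap of 0.854 of the whole range. The same array had the highest pancreas marker mean (12.87), and their relation was not tested.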

How the results depend on the processing

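Counts of the 9 genes called (4 in STZ, SD vs Con, SD, 2 in STZ, BEZ vs STZ, SD and 3 in STZ, BEZ vs Con, SD) and of the 5 lists (14, 15 and 34) depended on the following settings. In the same order, 2063, 141 and 1187 of all 19938 genes were called. At an adjusted p under 0.05 the genes were 1, 1 and 3, with 4 of the lists in STZ, BEZ vs STZ, SD, beside 1089, 17 and 602 of all genes. SAM gave 4, 4 and 6 genes, and 29 and 62 list genes in STZ, BEZ vs STZ, SD and vs Con, SD. It called 2836, 612 and 4618 of all genes in the 3 comparisons. Fits on the compared groups alone gave 2 and 1 genes in the first 2 comparisons, with 2 and 52 list genes in STZ, BEZ vs STZ, SD and vs Con, SD. Of all genes they called 1022, 14 and 2820. Array weights gave 23 and 53 list genes in STZ, SD and STZ, BEZ vs Con, SD, beside 3374 and 3804 of all genes. The pancreas mean as a covariate gave 7 genes in both STZ, BEZ comparisons, 6 higher and Fgf21 lower, with 51 and 61 list genes. Beside them 1996 and 4173 of all genes were called. The white adipocyte mean as a covariate gave 2 and 1 genes in the first 2 comparisons, with 34 (28 higher and 6 lower, against 5 and 9 without it) and 1 list genes. That fit called 2346 and 6 of all genes there. Without the 5 arrays of high pancreas signal, which leaves 1 STZ, BEZ array assumed to vary like the others, the genes were 1 (Vnn1) and 1 (Acot1, not called with all arrays, while Arxes1 and Ucp3 were lost), and still 3 vs Con, SD, with Acot1 in place of Arxes1, and the list genes in the STZ, BEZ comparisons 5 and 13. The epididymis and testis mean as a covariate, added after the values were seen, gave 1 gene (Arxes1) and 3 list genes in STZ, BEZ vs STZ, SD and 9 list genes in STZ, BEZ vs Con, SD. It called 16 and 313 of all genes in them. Leaving out 1 array at a time gave 1 to 4, 1 to 2 and 3 genes, and 10 to 21, 2 to 36 and 21 to 43 list genes. All genes called then numbered 1128 to 2897, 11 to 705 and 418 to 2096. In STZ, BEZ vs STZ, SD the list count was 36 without STZ, SD replicate 1 and 24 without replicate 5, and 2 to 7 without STZ, SD replicate 2, 3 or 4 or any one of STZ, BEZ replicates 1 to 5, and in STZ, BEZ vs Con, SD it was 21 and 22 without STZ, BEZ replicates 2 and 5.

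The labels do not say whether the replicate numbers pair the samples. Same-numbered arrays correlated at -0.36 to 0.70, which does not settle it. The highest value was that of replicate 3 of STZ, SD and Con, SD, whose epididymis and testis marker means were both high (11.75 and 11.54). With the number as a replicate block 0, 0 and 3 genes and 8, 0 and 18 list genes were called, beside 680, 2 and 599 of all genes.

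Signs turned only for differences that were not called. Fgf21 in STZ, SD vs Con, SD became -0.024 with array weights, -0.045 with the pancreas and -0.19 with the adipocyte covariate and -0.11 without STZ, SD replicate 6 or the high-pancreas arrays. In STZ, BEZ vs STZ, SD it became 0.072 with array weights, 0.028 with the replicate block, 0.32 with the adipocyte covariate, 0.031 without the high-pancreas arrays and 0.14 without STZ, SD replicate 6, and in STZ, BEZ vs Con, SD -0.40 with the pancreas covariate (adjusted p = 0.0316) and -0.079 without those arrays. With the adipocyte covariate Angptl4 and Arxes1 in STZ, SD vs Con, SD became 0.26 and 0.10, Cyp4b1 in STZ, BEZ vs STZ, SD -0.10 and Plin2 in STZ, BEZ vs Con, SD -0.092, and the Plin2 value was -0.0088 without the high-pancreas arrays and -0.036 without Con, SD replicate 1 (-0.036 to 0.21 over single arrays left out). Acot1 in STZ, BEZ vs STZ, SD became -0.16 without STZ, BEZ replicate 5 (-0.16 to 0.42 over single arrays left out). Over the same, Fgf21 ranged between -0.11 and 0.20 and between -0.17 and 0.14 in its first and second comparison. With the epididymis and testis covariate Fgf21, Plin2 and Ucp3 in STZ, BEZ vs Con, SD became -0.11, -0.21 and -0.097. The cause was not tested.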

Other observations

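Over all arrays Pdk4 and Vnn1 correlated at 0.91, Pdk4 and Cyp4b1 at 0.82, Ucp3 and Plin2 at 0.82 and Ucp3 and Arxes1 at 0.82. Across these pairs the values ranged widely, with 0.17 for Vnn1 and Ucp3, 0.20 for Pdk4 and Plin2, 0.22 for Pdk4 and Ucp3, 0.40 for Cyp4b1 with Ucp3 and with Plin2, 0.54 for Cyp4b1 and Arxes1, and 0.58 for Arxes1 with Pdk4 and with Vnn1. After removal of the group means Ucp3 and Arxes1 correlated at 0.86, Pdk4 and Cyp4b1 at 0.82 and Pdk4 and Vnn1 at 0.73, while Pdk4 and Arxes1 correlated at 0.22, Cyp4b1 and Ucp3 at 0.66 and Cyp4b1 and Plin2 at 0.63. Fgf21 and Acot1 had no correlation with another of the 9 above 0.394 over all arrays. Negative values were larger for Fgf21, with -0.49 for Plin2, -0.46 for Angptl4 and -0.31 for Arxes1. These values are descriptions over arrays that share treatment and tissue content, and have no test. The brown adipocyte markers, 7 genes of heat-producing fat, averaged 7.62 to 8.21 in STZ, BEZ, 6.43 to 7.29 in STZ, SD and 6.62 to 7.49 in Con, SD, so that this mean was higher on every STZ, BEZ array than on every other array. The markers did not all rise: relative to Con, SD, 5 had a higher and 2 a lower group mean in STZ, BEZ. Cox8b had 11.01 against 8.99, while Dio2 had 5.43 against 5.60 and Cox7a1 7.84 against 7.92. Ucp1, which is not in that list, was not called against Con, SD with limma (adjusted p = 0.915).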
